A study of Mus musculus with 12 samples.

Results

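The 6 GATA transcription factor genes of the mouse, Gata1 to Gata6, were described in the chromatin maps of 2 melanoma cell lines. They are 6 of the 21887 protein-coding genes on chromosomes 1 to 19, X and Y. The members were taken by family name, and what was recorded was every deposited peak within 50 kb of either end of each gene model, with a peak counted as lying at a gene end when it came within 1 kb of that end. The family was selected on the presence of peaks at its gene ends and on the bases they cover in these same lists, so the values below are a description and no test was run on them. The maps came from chromatin immunoprecipitation followed by sequencing (ChIP-seq) of cultured melanoma cells. Line 971 is labelled Kmt2d wild type (WT) and line 493 is labelled Kmt2d mutant. Kmt2d encodes a methyltransferase that places H3K4me1 at enhancers. How the mutation arose, and whether either line is a clone, is not given in the labels, and both lines had the same serum-containing medium and no labelled treatment. Each line had 1 library per mark, so no value has a replicate check, and a difference between the lines cannot be told apart from a difference between the cultures or libraries. In bulk ChIP-seq, fewer marked cells and less mark per cell cannot be told apart either.

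GATA factors are zinc finger proteins that bind the short DNA word GATA and its flanks. Gata1, Gata2 and Gata3 are known from blood: Gata1 from red cells and megakaryocytes, Gata2 from blood stem and progenitor cells, and Gata3 from T helper cells as well as breast and hair follicle epithelium. Gata4, Gata5 and Gata6 are known from heart, gut and other endoderm. Outside the cells that use them, genes of this kind are often held under Polycomb, whose complex PRC2 places H3K27me3. H3K4me3 marks CpG-rich promoters, H3K27ac marks active promoters and enhancers, and promoters with both H3K4me3 and H3K27me3 are called bivalent.

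The promoter windows are printed because the mark that covers them differed between the members. RefSeq windows (GRCm38.p6, from 250 bases before to 50 bases after an annotated start) were found for 4 of the 6 members. Capitals mark CpG dinucleotides. Gata1 has 1 window at chrX:7967861-7968160 on the minus strand, which no deposited peak overlapped.
Gata1: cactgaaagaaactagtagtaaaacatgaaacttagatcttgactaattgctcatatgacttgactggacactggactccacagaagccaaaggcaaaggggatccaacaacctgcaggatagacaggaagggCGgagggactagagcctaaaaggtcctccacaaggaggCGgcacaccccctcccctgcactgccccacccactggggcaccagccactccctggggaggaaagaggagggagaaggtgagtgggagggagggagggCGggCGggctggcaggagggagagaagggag
Gata2 has windows at chr6:88193641-88193940 and chr6:88198414-88198713 on the plus strand, and all 300 bases of each lay in H3K4me3 peaks of both lines.
Gata2, start at the lower gene end: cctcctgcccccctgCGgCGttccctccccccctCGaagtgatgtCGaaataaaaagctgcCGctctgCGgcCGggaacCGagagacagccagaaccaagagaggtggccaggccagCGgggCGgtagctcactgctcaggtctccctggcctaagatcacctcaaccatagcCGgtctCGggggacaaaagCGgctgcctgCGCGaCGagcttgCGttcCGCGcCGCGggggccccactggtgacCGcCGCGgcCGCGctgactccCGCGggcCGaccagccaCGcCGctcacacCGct
Gata2, start inside the gene model: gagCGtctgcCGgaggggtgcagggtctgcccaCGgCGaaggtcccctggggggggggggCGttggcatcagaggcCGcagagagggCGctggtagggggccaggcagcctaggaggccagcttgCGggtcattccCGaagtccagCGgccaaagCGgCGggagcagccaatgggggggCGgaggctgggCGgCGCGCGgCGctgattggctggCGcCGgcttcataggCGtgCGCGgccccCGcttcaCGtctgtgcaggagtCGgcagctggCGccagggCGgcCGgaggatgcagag
Gata3 has a window at chr2:9878551-9878850 on the minus strand, inside the gene model, which also lay whole in H3K4me3 peaks of both lines.
Gata3: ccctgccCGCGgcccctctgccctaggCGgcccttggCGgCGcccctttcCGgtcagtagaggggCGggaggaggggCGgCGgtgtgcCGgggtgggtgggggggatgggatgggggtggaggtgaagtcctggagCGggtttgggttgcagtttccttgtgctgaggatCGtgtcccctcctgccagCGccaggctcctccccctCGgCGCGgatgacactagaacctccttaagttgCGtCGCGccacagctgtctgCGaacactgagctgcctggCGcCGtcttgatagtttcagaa
Gata5 has a window at chr2:180334630-180334929 on the minus strand, which lay whole in a WT H3K27me3 peak and in no H3K4me3 peak.
Gata5: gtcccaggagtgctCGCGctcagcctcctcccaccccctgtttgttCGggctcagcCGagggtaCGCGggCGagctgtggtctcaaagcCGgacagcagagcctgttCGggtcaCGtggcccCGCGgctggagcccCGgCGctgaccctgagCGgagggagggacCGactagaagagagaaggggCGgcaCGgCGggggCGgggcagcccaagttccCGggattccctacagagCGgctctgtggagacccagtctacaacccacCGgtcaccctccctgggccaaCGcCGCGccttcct

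These windows differed in CpG content. The Gata1 window held 4 CpG dinucleotides, against a median of 13 over 21263 windows of protein-coding genes. The Gata2 windows held 32 and 29, the Gata3 window 22 and the Gata5 window 26. The GATA factor motif was searched on both strands as AGATAA or its variant TGATAA and as AGATAG or its variant TGATAG. A single match, to the last of these, was found at base 287 of the printed Gata3 window, after the annotated start. Of all windows, 26.0% held at least 1 match.

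H3K27me3 of WT cells differed widely between the members. Around Gata4 its peaks covered 56.6 kb within 50 kb of the gene ends, around Gata6 13.0 kb and around Gata5 10.8 kb. Around Gata3 they covered 5.45 kb, around Gata2 2.46 kb and around Gata1 0.709 kb. The windows are of unequal length, since that of Gata4 takes in a gene model of 72.8 kb. Within 20 kb of the ends the coverage was 30.7 kb at Gata4, 13.0 kb at Gata6, 7.83 kb at Gata5, 5.45 kb at Gata3, 0 kb at Gata2 and 0.375 kb at Gata1. The median over the 6 members was 8.10 kb, and over all protein-coding genes it was 0 kb. Coverage of 10 kb or more was found at 3 of the 6 members and at 6.01% of all genes. H3K27me3 lay at a gene end of Gata3, Gata4, Gata5 and Gata6, which is 4 of 6 members, against 9.94% of all genes. These are values the family was chosen by, so nothing is read from the gap to the shares over all genes.

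**Figure D1:**
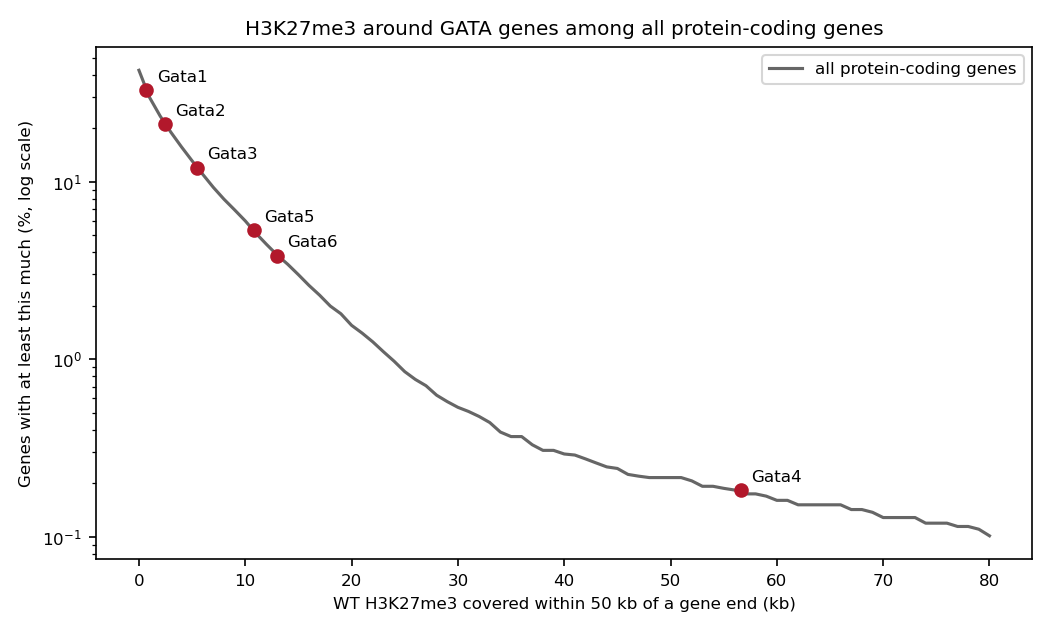
Share of protein-coding genes (vertical, log scale) with at least a given WT H3K27me3 coverage within 50 kb of the gene ends (horizontal, kb), with the 6 GATA genes as points. Gata4 sits far to the right at 56.6 kb, and Gata1 at 0.709 kb lies near the upper left.

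Gata4, a regulator of heart muscle and of endoderm, carried a wide Polycomb domain. The gene model (chromosome 14, 63198914 to 63271712) is 72.8 kb long, and 59.9% of it lay in WT H3K27me3 peaks. Only 39 protein-coding genes had more H3K27me3 within 50 kb. The 34 peaks there included one of 14031 bases (63239357 to 63253387), the 11th widest of the 25394 in the list, with a deposited enrichment of 5.71-fold. A peak of 5303 bases covered the lower gene end and one of 5121 bases the upper end. When peaks up to 1 kb apart were joined, stretches of 21.5 kb and 19.6 kb lay in the upper part of the gene, with the latter running past the upper end, and one of 9.55 kb lay over the lower end. From 7.25 kb to 28.3 kb above the lower end a single peak of 769 bases was listed, so the domain was interrupted within the gene. No H3K4me3, H3K27ac or H3K4me1 peak lay at either end in either line. Inside the gene a WT H3K4me3 peak of 897 bases (63244925 to 63245821) lay wholly within H3K27me3. No promoter window was found for Gata4, so whether this peak lies at a start cannot be told.

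Gata5, known from heart and endoderm development, had H3K27me3 and nothing else. The gene (chromosome 2, 180325088 to 180335503) is 10.4 kb long, and 37.7% of it was covered. The main peak was 5654 bases wide (180332388 to 180338041), lay over the upper gene end with the promoter window printed above, and ranked among the widest 0.740% of the list. A further 15 peaks of 200 to 857 bases lay in the window of 50 kb. In the H3K4me3, H3K27ac and H3K4me1 lists of both lines no peak was listed within 50 kb of the gene ends.

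Gata6, which acts in early endoderm and heart, was the bivalent member by overlap of WT peaks at a gene end. The marks come from separate bulk libraries, so whether they lie in the same cells cannot be told. WT H3K27me3 peaks of 5488 and 6030 bases lay on either side of the lower gene end (chromosome 18, gene model 11052510 to 11085636). An H3K4me3 peak of 2549 bases sat over that end, from 0.401 kb below it to 2.15 kb inside the gene, and 1371 of its bases overlapped H3K27me3. The mutant line also had H3K4me3 there, with a peak of 1893 bases, of which 1051 overlapped the WT H3K27me3. The gap between these WT H3K27me3 peaks thus took in the gene end, and the H3K4me3 peak of each line covered part of that gap. An H3K4me3 peak at a gene end that overlapped H3K27me3 was found in WT cells at 1 of 6 members and at 4.09% of all genes. Overlaps of the marks further inside a gene model, as at Gata3 and Gata4, are not counted by this rule. With the marks allowed at either end without overlap, Gata3 joined Gata6, so 2 of 6 members had both, against 4.88% of all genes. The peak cannot be assigned to Gata6 alone, since an end of the lncRNA gene Gata6os lies under it as well. No H3K27ac or H3K4me1 was listed near Gata6 in either line.

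Gata3, the T helper and luminal epithelial regulator, had both marks next to each other. WT H3K27me3 lay upstream of the annotated promoter, in 9 peaks between 25.1 kb and 42.2 kb from the lower end of the gene (chromosome 2, 9857078 to 9887953). The strongest H3K4me3 peak lay inside the gene model over the promoter window and did not touch H3K27me3. It was 3176 bases wide in WT cells (9877504 to 9880679) and 2455 bases wide in mutant cells. A second H3K4me3 peak, 644 bases beyond the upper gene end, was 1249 bases wide in WT cells and 1322 bases wide in mutant cells, and the nearest H3K27me3 peaks stopped short of it on both sides. Because the gene model reaches past the printed promoter, the H3K4me3 counted at the gene end of Gata3 is this second, weaker peak. It also covers an end of the lncRNA gene 9230102O04Rik, and the lists cannot say which gene it belongs to. Of the 3 other WT H3K4me3 peaks, the one of 1374 bases (9883347 to 9884720) shared 744 bases with H3K27me3, and none of the 3 overlapped a mutant peak.

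Gata2, the blood progenitor regulator, carried the most H3K4me3 within its gene body as a share of its length. WT peaks covered 37.0% of the gene (chromosome 6, 88193891 to 88207032) and mutant peaks 34.3%. The peak over the promoter inside the gene was 3095 bases wide in WT cells (88197747 to 88200841) and 3780 bases wide in mutant cells, and the peak over the lower gene end 1053 and 1353 bases. A peak upstream of the gene was 1107 bases wide in WT cells and 1098 bases wide in mutant cells. These 3 sites were therefore listed in both lines, with the pair at the promoters wider in mutant cells. Over the whole H3K4me3 lists the median peak width was also larger in mutant cells, 1980 bases against 1610 in WT cells. A WT peak of 1098 bases towards the end of the gene (88202657 to 88203754) had no mutant counterpart. No H3K27me3 peak lay in the gene body, and the 4 in the window covered 2.46 kb, with 3 of them nearer to Dnajb8. The lncRNA gene Gm38708 overlaps Gata2 and ends under the widest H3K4me3 peak, so the 2 genes cannot be told apart there.

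Gata1, the red cell regulator on the X chromosome, was the member with no peak at a gene end in any of the 8 lists, a state shared by 35.1% of all genes. The gene (7959260 to 7976663) held a single WT H3K27me3 peak of 375 bases and no peak of another mark. The H3K4me3 within 50 kb, 2.47 kb in WT cells and 1.71 kb in mutant cells, lay at other genes. A peak of 1902 bases in WT cells and 1131 bases in mutant cells lay at an end of Hdac6, a cytoplasmic deacetylase gene, and a peak of 568 bases in WT and 579 bases in mutant cells lay nearest to Eras. The wider WT peak also holds a start of the lncRNA gene Gm39488, which overlaps Gata1, so it cannot be assigned to Hdac6 alone.

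**Figure D2:**
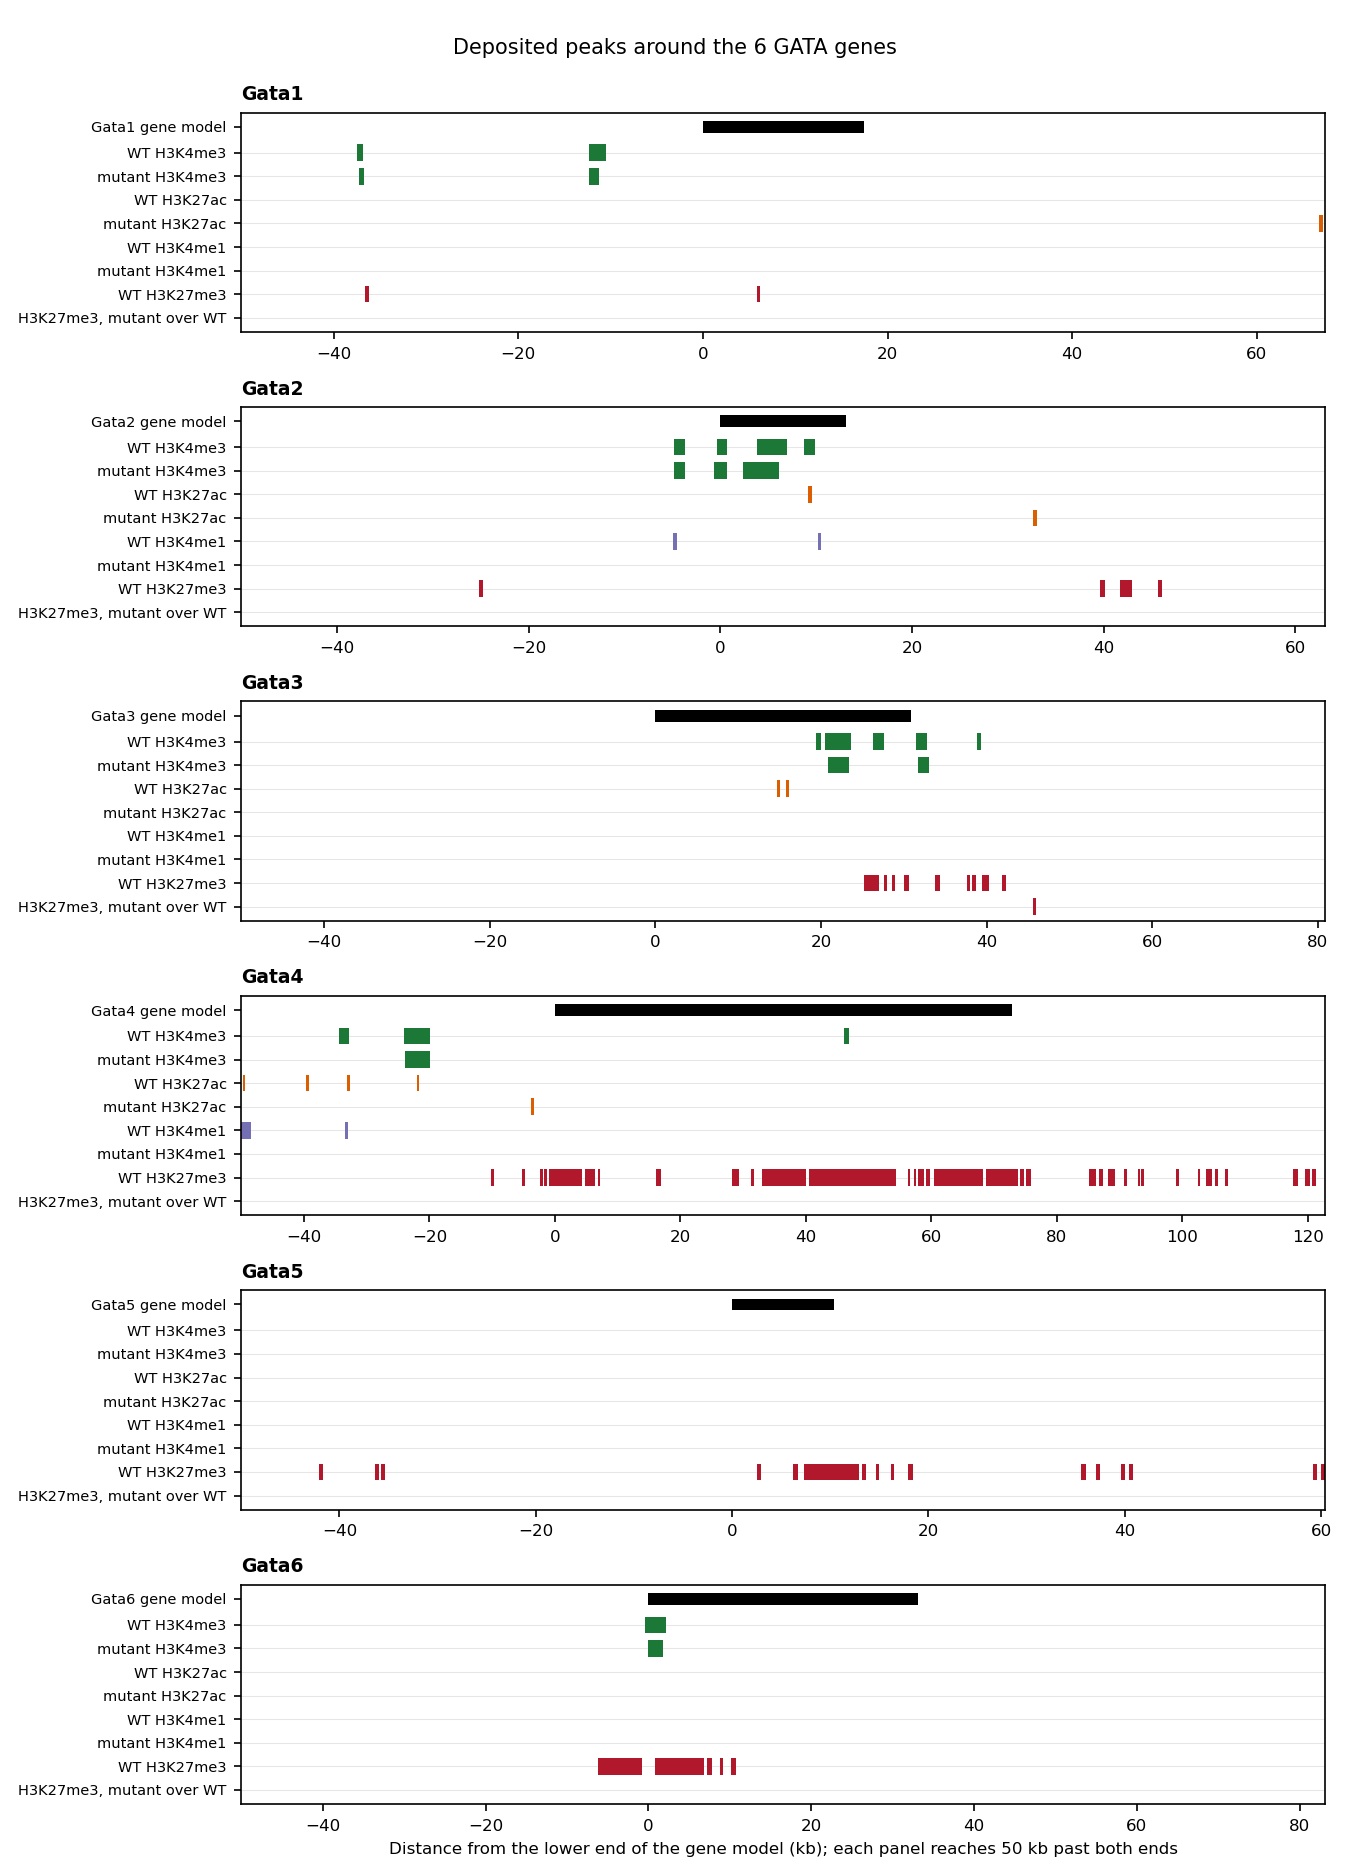
Peaks of the 8 deposited lists around each GATA gene, with the gene model in black and distance from its lower end in kb on the horizontal axis. Peaks under 0.4 kb are drawn 0.4 kb wide. H3K27me3 fills much of Gata4, lies over the upper end of Gata5 and flanks and partly overlaps the H3K4me3 peak of Gata6. Gata2 and Gata3 carry H3K4me3 within the gene.

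H3K4me3, H3K27ac and H3K4me1 could be compared between the lines at the gene ends, H3K27me3 could not. H3K4me3 was listed at a gene end of Gata2, Gata3 and Gata6 in both lines, 3 of 6 members. The share over all genes was 56.4% in WT cells and 56.7% in mutant cells, and 55.0% had it in both. H3K4me3 in WT cells alone was found at 1.37% of all genes and in mutant cells alone at 1.68%, and each at 0 of 6 members. In the more significant 50% of each list, H3K4me3 was at a gene end of 1 member for WT and 0 for mutant. The share over all genes was not taken at that setting. H3K27ac was at 0 of 6 gene ends in either line, against 28.7% of all genes for WT and 19.5% for mutant. Over all genes it was at an end in both lines at 12.6%, in WT cells alone at 16.1% and in mutant cells alone at 6.84%. H3K4me1 was also at 0 of 6, against 4.21% for WT and 2.27% for mutant. Over all genes it was in both lines at 0.475%, in WT cells alone at 3.73% and in mutant cells alone at 1.79%.

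Within 50 kb, 5 of 6 members had less H3K4me3 in mutant cells, as did 54.5% of all genes, and Gata5 had none in either line. The WT and mutant coverage was 6.86 kb and 3.78 kb at Gata3, 6.52 kb and 3.99 kb at Gata4, and 2.55 kb and 1.89 kb at Gata6. Gata2 had 6.35 kb and 6.23 kb, a difference whose sign turned within 100 kb and in the more significant 50% of peaks, to 0.389 kb and 0.685 kb more in mutant cells. The median difference over the 6 members, mutant minus WT, was -0.708 kb, and over all genes -0.125 kb, with a mean over all genes of -0.671 kb. A coverage at least 1.5-fold lower in mutant cells was found at Gata3 and Gata4, 2 of 6 members, against 8.19% of all genes. None was 1.5-fold higher, against 3.28%. With lists cut to equal length, or within 100 kb, 1 member was 1.5-fold lower, and at a fold of 2 none was. Shares over all genes were not taken at these settings. The Gata3 difference of -3.09 kb came to -0.721 kb in the more significant 50% of peaks, and the Gata4 difference of -2.53 kb to -0.186 kb there and to 0 kb within 20 kb. The Gata6 difference of -0.656 kb came to -2.55 kb in the more significant 50%, where the mutant peak is left out. The Gata1 difference of -0.76 kb ranged from -0.192 kb in lists of equal length to -1.90 kb in the more significant 50%.

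The Gata4 and Gata1 differences lay mostly at neighbouring genes. Of the H3K4me3 around Gata4, 5.63 kb in WT cells and all 3.99 kb in mutant cells lay nearest to Fdft1, a squalene synthase gene. What lay nearest to Gata4 was a peak of 897 bases in WT cells alone (63244925 to 63245821), all of it inside the H3K27me3 domain. At Gata2, Gata3 and Gata6 every H3K4me3 peak in the window was nearest to the member. At Gata3 the lower coverage was made up of 3 WT peaks with no mutant counterpart and a narrower peak at the promoter.

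**Figure D3:**
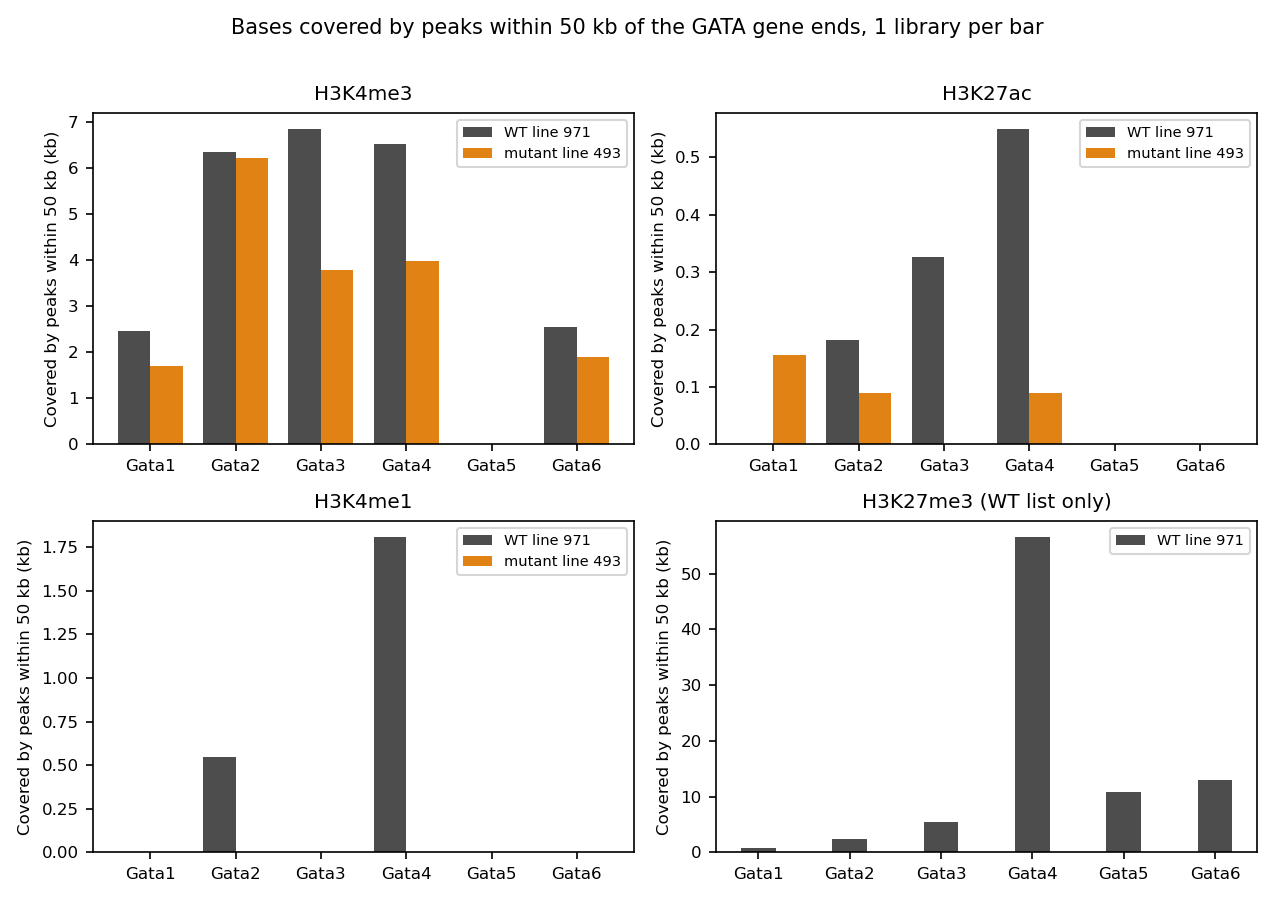
Kilobases covered by peaks within 50 kb of the gene ends for each GATA gene and mark (vertical, separate scale per panel), WT line 971 and mutant line 493, 1 library per bar. H3K4me3 is 6.86 kb and 3.78 kb at Gata3 in WT and mutant lists, and no mutant H3K4me1 bar is present.

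The WT H3K4me3 peaks without a mutant counterpart all scored below the median of their list. Of the 16 WT H3K4me3 peaks near members, 9 overlapped a mutant peak, against 72.2% of the whole list. All 5 with a deposited score at or above the list median of 638.58 did so, as did 98.9% of such peaks in the list. Of the 11 below the median 4 did so, against 45.6% in the list. The 7 without a mutant counterpart had scores from 53.13 at Gata3 to 245.88 at Gata2. The score is the authors' -10 times log10 p and was used within the WT list alone.

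**Figure D4:**
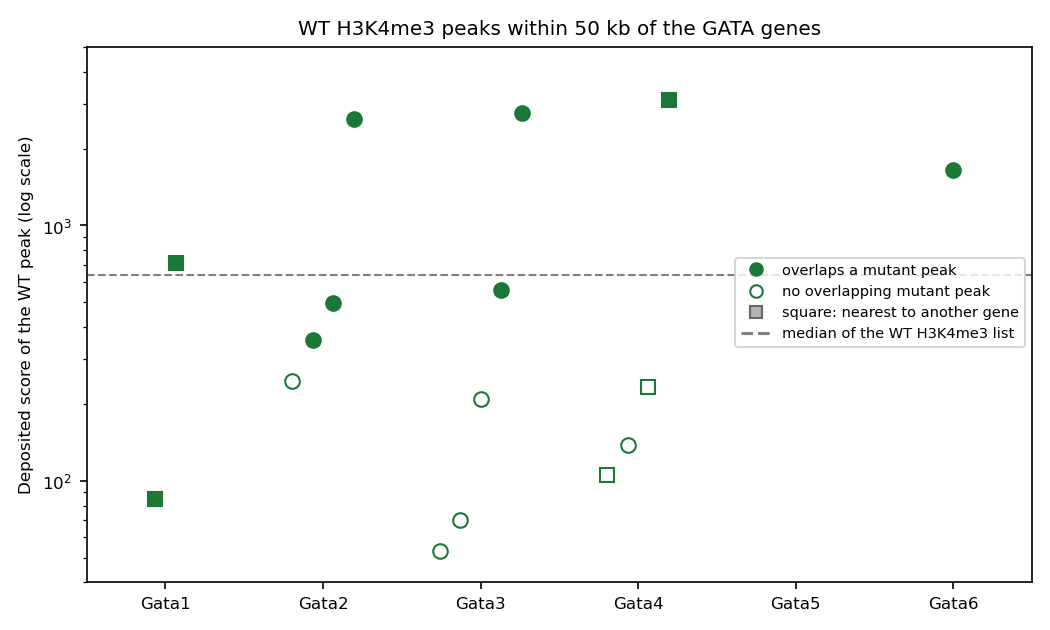
Deposited score (vertical, log scale) of each WT H3K4me3 peak within 50 kb of a GATA gene, with filled symbols for peaks that overlap a mutant peak and squares for peaks nearest to another gene. All 5 peaks above the dashed median of the list are filled, and the 7 open symbols lie between 53.13 and 245.88.

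Within 50 kb, H3K27ac was listed near 3 of 6 members in each line, against 70.0% (WT) and 62.7% (mutant) of all genes. The median over the members was 0.091 kb (WT) and 0.0445 kb (mutant), and over all genes 0.264 kb and 0.128 kb. Gata3 and Gata4 in WT cells and Gata1 in mutant cells lay above the all-gene median of that line. Coverage within 50 kb was 0 kb in WT cells and 0.156 kb in mutant cells at Gata1, 0.182 kb and 0.089 kb at Gata2, 0.326 kb and 0 kb at Gata3, and 0.550 kb and 0.089 kb at Gata4. Gata5 and Gata6 had none. The 2 WT peaks at Gata3, 94 bases (9871732 to 9871825) and 232 bases (9872846 to 9873077) wide, lay inside the gene model, and the WT peak at Gata2 (88203012 to 88203193) lay within the H3K4me3 peak that the mutant line lacked. All 5 WT peaks near Gata4 lay nearest to Fdft1 or Ctsb, and the mutant peaks near Gata1, Gata2 and Gata4 were nearest to Glod5, Dnajb8 and Neil2. In mutant cells no H3K27ac peak was thus nearest to a GATA gene. At least 1.5-fold lower coverage in mutant cells was found at 3 of 6 members (Gata2, Gata3 and Gata4), against 42.3% of all genes, and higher coverage at 1 of 6 (Gata1), against 11.8%. At Gata4 the difference of -0.461 kb turned to 0.089 kb more in mutant cells within 20 kb, and with peaks nearest to the member alone, 2 members were lower and 0 higher. No share over all genes was taken for such nearest peaks. None of the 8 WT peaks overlapped a mutant peak, and 8.65% of the whole WT list did.

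H3K4me1, the mark that KMT2D places, was listed near Gata2 and Gata4 in WT cells and near no member in mutant cells. Over all genes, 44.9% had H3K4me1 within 50 kb in WT cells and 26.2% in mutant cells. At Gata2 it covered 0.550 kb in WT cells, in peaks of 200 bases upstream (88189001 to 88189200) and 350 bases within the gene (88204047 to 88204396). The first overlapped the H3K4me3 peak upstream of the gene, and the second began just past the H3K4me3 and H3K27ac peaks that mutant cells lacked. At Gata4 it covered 1.81 kb, of which 1611 bases were nearest to Ctsb and 200 to Fdft1. Lower coverage in mutant cells was thus found at 2 of 6 members, against 38.4% of all genes, and higher coverage at none, against 8.03%. The mutant list holds 3649 peaks and the WT list 17373, and of the WT list 6.63% overlapped a mutant peak. With lists cut to equal length no WT peak was left near a member, and when only peaks nearest to the member were used Gata2 alone was lower. No share over all genes was taken at these settings.

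The mutant H3K27me3 list is named as called against WT H3K27me3, so it would hold regions higher in mutant cells, and it holds 1300. One of 151 bases (9902630 to 9902780) lay near Gata3, 14.7 kb beyond the upper gene end and closer to Taf3, with an enrichment of 5.01-fold as deposited. None lay at a gene end of a member, against 0.219% of all genes. Whether the domains at Gata4, Gata5 and Gata6 are present in mutant cells cannot be read from this list.

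The genes most like each member were found by distance over the 8 lists, on log2 of covered bases plus 100, leaving out genes within 100 kb of a member. Gata5 was closest to Tcf21, Ncf4 and Tecta, with distances of 0.0351 to 0.0609, and in all 3 H3K27me3 was the only mark listed. Gata6 was closest to Olig2, Olfr1414 and Msx1, where Olig2, a neural lineage factor, had 2.02 kb of WT H3K4me3 and 14.1 kb of H3K27me3. Gata1 was closest to Srp9, Vmn1r1 and Il17f, and Gata2 to Methig1, Cldnd2 and Etfb. Gata3 was closest to Fabp3, Acot3 and Gm1113, at 1.01 or more. Gata4 had the most distant closest genes, with Syt7 at 1.52, Syt2 at 1.59 and Ccdc187 at 1.60. Among the members themselves the smallest distance was 3.25, between Gata3 and Gata6, so no member had another as its closest match.

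Partners of GATA factors were taken from 4 lists, drawn up with earlier results of these data known. Of 11 cofactors and relatives, 7 had H3K4me3 at a gene end in both lines and none in 1 line alone. Over all genes, 55.0% had it in both lines, 1.37% in WT cells alone and 1.68% in mutant cells alone. Zfpm1, the FOG cofactor gene, had H3K27ac and H3K4me1 at a gene end in WT cells alone, with H3K4me1 of 3.62 kb in WT and 0.422 kb in mutant cells. Gatad2a, a subunit gene of the NuRD complex, also had H3K4me1 at a gene end in WT cells alone. Trps1, a GATA-type repressor gene, had H3K27ac at a gene end in WT cells alone. Within 50 kb, however, the H3K27ac of Trps1 covered more in mutant cells, 0.946 kb against 0.572 kb in WT cells. The H3K4me3 of Trps1 covered 8.38 kb (WT) and 5.89 kb (mutant). Tal1 and Lmo2, blood partners of GATA1, had WT H3K27me3 at a gene end, with 22.7 kb and 9.65 kb. They were 2 of the 11, against 9.94% of all genes. Tal1 also had H3K4me3 at a gene end in both lines, and Lmo2 had it in neither. Coverage at least 1.5-fold lower in mutant cells was found at none of the 11 for H3K4me3, 4 for H3K27ac and 8 for H3K4me1, against 8.19%, 42.3% and 38.4% of all genes. Higher coverage was found at 0, 4 and 2, against 3.28%, 11.8% and 8.03%.

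Of 12 heart and endoderm partners, 7 had WT H3K27me3 at a gene end, against 9.94% of all genes. The median coverage of the 12 was 12.7 kb within 50 kb, against 0 kb over all genes, and Foxa2 had 46.7 kb. Foxa2 and Hand2 had H3K4me3 at a gene end in mutant cells alone. Foxa2, an endoderm factor, had 0.378 kb in WT and 2.80 kb in mutant cells, and Hand2, a heart factor, 0.638 kb and 1.36 kb. Tbx20, another heart factor, had 6.04 kb and 11.1 kb. H3K4me3 was 1.5-fold higher at 3 of the 12 (3.28% of all genes) and lower at 2 (8.19%). H3K27ac was lower at 5 (42.3%) and higher at 1 (11.8%), and H3K4me1 lower at 4 (38.4%) and higher at 2 (8.03%). Sox7 had H3K27ac at a gene end in WT cells alone.

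Of 10 blood partners and targets, 2 had H3K27me3 at a gene end (9.94% of all genes), and Fli1, an ETS factor of blood and vessels, had H3K4me3 at a gene end in mutant cells alone, with 1.85 kb in WT and 3.74 kb in mutant cells. A region of the mutant H3K27me3 list also lay at a gene end of Fli1. H3K4me3 was 1.5-fold higher at 1 of the 10 (3.28% of all genes) and lower at 1 (8.19%). H3K27ac was lower at 5 (42.3%) and higher at 1 (11.8%), and H3K4me1 lower at 4 (38.4%) and higher at 2 (8.03%). Itga2b, a platelet integrin, had 0.951 kb of H3K27ac against 0 kb, and Cd34 had H3K27ac at a gene end in WT cells alone. Around Runx1, a blood stem cell factor, H3K4me1 covered 7.04 kb in WT cells and 1.11 kb in mutant cells. Of 9 T cell and luminal genes, 1 had H3K27me3 at a gene end, against 9.94% of all genes. Esr1, the oestrogen receptor gene, had H3K27ac at a gene end in mutant cells alone, and its H3K4me3 covered 0.431 kb (WT) and 3.21 kb (mutant). Tcf7, a T cell factor gene, had H3K27ac at a gene end in WT cells alone. H3K4me3 was 1.5-fold higher at 2 of the 9 (3.28% of all genes) and lower at 1 (8.19%). H3K27ac was lower at 4 (42.3%) and higher at 1 (11.8%), and H3K4me1 lower at 4 (38.4%) and higher at 1 (8.03%). Krt8, a luminal keratin gene, had 5.24 kb of H3K4me1 against 0 kb.

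The label of melanoma was set beside 9 melanocyte lineage genes, of which 2 had H3K4me3 at a gene end in WT cells and 5 in mutant cells. Over all genes the shares were 56.4% (WT) and 56.7% (mutant), which also apply to the H3K4me3 marker counts below. With so few genes per cell type, these counts do not settle the label. Mitf and Pmel had it in both, Sox10, Mlana and Slc45a2 in mutant cells alone, and Tyr, Dct, Tyrp1 and Kit in neither. Of the markers of other cell types, H3K4me3 was at a gene end of 1 of 5 blood genes, 1 of 5 endothelial genes and 1 of 3 T cell genes in each line. It was at 3 of 4 fibroblast genes in WT cells and 2 in mutant cells, and at 0 and 1 of 4 keratinocyte genes. H3K4me1 was at an end of 3 of 4 fibroblast genes in WT cells alone (3.73% of all genes) and of no other marker. WT H3K27ac was at 2 of 4 fibroblast, 1 of 9 melanocyte and 1 of 5 blood genes (28.7% of all genes). WT H3K27me3 was at 2 of 9 melanocyte genes (Sox10 and Tyr), 2 of 3 T cell and 1 of 4 keratinocyte genes (9.94% of all genes). Of the blood markers, H3K4me3 within 50 kb was 0 kb in both lines at Ptprc and Hbb-bt, 2.56 kb (WT) and 2.60 kb (mutant) at Cd34, 7.47 kb and 7.43 kb at Spi1, and 15.1 kb and 14.8 kb at Itga2b. What part, if any, such differences in lineage marks have in the values of the GATA genes was not tested.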

How the data were processed

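The values start from 8 peak lists, each for 1 ChIP library with no pooling. By its name, the mutant H3K27me3 list was also called against the WT H3K27me3 library. The 4 input libraries were not analysed here. Build mm10, MACS2, FastQC and MultiQC are named per the submitters' processing notes, and the aligner, read depth and tool versions were not given in the sources used here. As deposited, the H3K27ac, H3K4me1 and H3K27me3 lists give for each peak a fold enrichment (a ratio) and −log10 p and q values. For H3K4me3 the deposited score is −10 times log10 p. Scores and folds were used within a list only. The smallest −log10 p deposited was 3.86 and 3.92 for H3K27ac, 5.01 and 5.03 for H3K4me1 and 5.01 for WT H3K27me3, and the smallest H3K4me3 score was 50. A stricter threshold, or fewer reads, lists fewer covered bases for the same mark.

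Gene ends were read from RefSeq on GRCm38.p6, the assembly of mm10. Bases covered by peaks were summed within 50 kb of either gene end in Python 3.11.15 with pandas 2.3.3, and the computation was tested on simulated intervals. A fold of 1.5 in covered bases counted as a difference. All 6 members were named, and of the partners those whose gene-end state differed or whose coverage differed most, except 1 that is not reported here. Members, lists and alternatives were chosen with earlier results of these data known.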

Additional observations from a re-analysis of the deposited data

How the results depend on the processing

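No paired analysis was possible because each line had 1 library per mark. Of the alternative values for counts of members, 13 moved by over 1.5 times. Of the 69 others, 38 were 0 for a reported count of 0 and so say little about stability. H3K4me3 at a gene end was found at 1 member (WT) and 0 (mutant), in place of 3, in the more significant 50% of each list, where the stronger peaks inside Gata2 and Gata3 are not counted at a gene end. With the annotated start alone, available for 4 members, WT H3K27me3 was at 1, Gata5. Gata4 and Gata6, which had the most H3K27me3 within 50 kb, had no such start and were left out. Of all promoter windows, 4.44% overlapped WT H3K27me3. H3K4me3 was lower in the mutant line at 1 member within 100 kb, 1 in lists of equal length, 5 for any difference and 0 at a fold of 2. H3K4me1 was lower at 1 member within 20 kb, 4 within 100 kb, 0 in the more significant 50% and 0 in lists of equal length. With the peaks nearest to the member, chosen after seeing the data, H3K4me1 was lower at 1 and H3K27ac higher at 0. Other than 54.5% of all genes for any lower H3K4me3, no share over all genes was taken at these settings. The counts therefore have no background beside them. The H3K27ac difference at Gata4 turned within 20 kb, to 0.089 kb more in the mutant line. The causes were not tested beyond the number of peaks each setting leaves. Read depth is unknown, so a mark that is absent and one below the threshold cannot be told apart.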

Other observations

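Promoter windows were grouped by CpG content to place the members. In the group of windows richest in CpG, 92.8% overlapped WT H3K4me3 and 5.15% WT H3K27me3, and in the poorest group 6.43% and 2.29% did. The Gata2 and Gata5 windows fall in the richest group, Gata3 in the middle and Gata1 in the poorest. Of the 5263 windows in the richest group, 94 (1.79%) lay in H3K27me3 without H3K4me3, as the Gata5 window does.

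Some lncRNA genes beside or overlapping the members had marks at their ends. The peaks there are among those already described for the members, so they are not separate marks. Gata5os, which overlaps Gata5, and Gm52543, next to Gata5, had WT H3K27me3 at a gene end and no H3K4me3 in either line. Each has an end under the main H3K27me3 peak of Gata5. Gata6os had both marks in the WT line, as Gata6 did. At 4930412O13Rik and 9230102O04Rik, which overlap Gata3, H3K4me3 was at a gene end in both lines and H3K27me3 in the WT line.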
